A study of Homo sapiens with 24 samples.

Results

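Cytosolic ribosomal protein genes were examined in human rhabdomyosarcoma cells treated with a DNA hypomethylating drug, a kinase inhibitor, or both. The genes were taken by name: RPL or RPS followed by a number and, where present, a letter or copy number, plus RPLP0, RPLP1, RPLP2 and RPSA, with pseudogenes left out. This gave 87 of the 29639 genes in each deposited table. Of these, 49 encode proteins of the large (60S) subunit, 35 encode proteins of the small (40S) subunit and 3 encode the acidic stalk. They comprise 77 main genes and 10 paralogs, the latter being RPL3L, RPL7L1, RPL10L, RPL22L1, RPL26L1, RPL39L, RPS10L, RPS27L and the Y-linked RPS4Y1 and RPS4Y2. The Y-linked genes are counted, and no value of theirs is given.

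Rh30, an alveolar rhabdomyosarcoma line, and RD, from the embryonal form of this childhood tumour of the skeletal muscle lineage, were cultured for 5 days in DMSO, SGI-110, dasatinib or SGI-110 plus dasatinib. Each of the 8 groups held 3 libraries, 24 in all. SGI-110 was given at 0.5 µM, and the labels leave the dose of dasatinib open to more than 1 reading. Both drugs were dissolved in DMSO, and each tumour type is represented by 1 established line. SGI-110 (guadecitabine) releases decitabine, which traps DNA methyltransferases so that methylation is lost as cells divide. Dasatinib inhibits the SRC family and ABL tyrosine kinases.

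The ribosome is built from ribosomal RNA and a nearly fixed set of proteins, and each protein is normally needed in equal number. Most mammalian ribosomal protein mRNAs begin with a C followed by a run of pyrimidines, the 5′ terminal oligopyrimidine (TOP) tract, through which mTORC1 and the LARP1 protein control their translation. A few genes have paralogs with tissue-restricted or regulated expression. Proteins made in excess of ribosome assembly are degraded, and free RPL5 and RPL11, together with 5S ribosomal RNA, can bind MDM2 and stabilise p53.

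Values were deposited as 4 comparison tables, without values per library, so each gene is given by its comparisons and their standard errors. Level means the mean normalised count over all 24 libraries. Differences are log2 fold changes ± the standard error, and a gene is called higher or lower at an adjusted p under 0.05. The standard errors have the size of 3 libraries against 3 of a single line, which the tables leave unnamed. The muscle lineage genes MYOD1, MYOG, DES, CHRNA1 and CHRNG had levels from 2874 to 11865 in the authors' deposited table, and MYF5 had 268. Of the 10 leukocyte, endothelial and epithelial markers, 9 had a level under 100 and PECAM1 had 674, and all 10 were higher with SGI-110 in the authors' deposited table. Their part in the results was not tested. In bulk RNA, a lower share of a transcript and fewer cells carrying it cannot be told apart.

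The start regions of 12 members are shown because the text returns to them: RPL22, RPS13 and RPL13A as members that fell, RPL12, RPS26 and 4 paralogs as members that rose with SGI-110, RPS12 for its interaction of both drugs, RPS6 as the S6 kinase substrate and RPL36 as a member not called. They were chosen after their values were seen. Each is 10 bases before to 20 bases from a RefSeq transcription start (GRCh38.p14), written 5′ to 3′ on the gene's strand. Capitals mark a C at the start followed by at least 4 pyrimidines.
RPL22 (chr1:6199576-6199605, minus strand): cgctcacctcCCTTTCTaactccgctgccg
RPS13 (chr11:17077648-17077677, minus strand): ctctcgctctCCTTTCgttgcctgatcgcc
RPL13A (chr19:49487598-49487627, plus strand): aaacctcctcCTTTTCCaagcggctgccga
RPS6 (chr9:19380217-19380246, minus strand): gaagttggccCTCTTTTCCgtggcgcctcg
RPS12 (chr6:132814559-132814588, plus strand): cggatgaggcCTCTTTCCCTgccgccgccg
RPL36 (chr19:5690285-5690314, plus strand): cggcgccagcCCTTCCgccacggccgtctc
RPL12 (chr9:127451387-127451416, minus strand): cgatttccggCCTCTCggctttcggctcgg
RPL22L1 (chr3:170870176-170870205, minus strand): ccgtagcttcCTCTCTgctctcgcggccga
RPS26 (chr12:56041908-56041937, plus strand): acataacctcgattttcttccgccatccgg
RPL7L1 (chr6:42879606-42879635, plus strand): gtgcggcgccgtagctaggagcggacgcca
RPL26L1 (chr5:172958719-172958748, plus strand): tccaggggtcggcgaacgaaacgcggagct
RPL10L (chr14:46651762-46651791, minus strand): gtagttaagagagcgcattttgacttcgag
The longest of these tracts, 10 bases, belongs to RPS12. RPL22L1 carries a tract of 6 bases like a main gene, whereas the printed starts of RPL7L1, RPL26L1 and RPL10L carry none.

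Over the 67 members with a RefSeq promoter entry, a tract of this kind stood at an annotated start in 47 (70.1%). It stood at a start in 46 of the 62 main members (74.2%) and in 1 of the 5 paralogs, against 5.14% of all genes with an entry and 7.82% of genes with a level of at least 100. In the window from 250 bases before to 50 after the start, CCGGAAG, the core bound by ETS factors, was found on either strand in 35.8% of members, against 12.2% of all genes and 23.5% of genes at a level of at least 100. The YY1 core ATGGCG was found in 41.8%, against 12.7% and 22.9%. The TATA box letters TATAAA were found in 10.4%, against 14.0% and 7.80%. The median number of CG dinucleotides per 300 bases was 25 in members, 16 in all genes and 29 in genes at a level of at least 100. A match is a description of letters and not a bound site.

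Ribosomal protein mRNAs were among the most abundant measured. The median level was 10194 over the 87 members and 24.5 over all genes in the authors' deposited table, and the members held 5.87% of all mean normalised counts. RPL5 was highest at 34047, rank 17 of all genes, followed by RPS3 (30583), RPL7A (29006) and RPL3 (28933) in the authors' deposited table. A level of at least 100 was reached by 83 members, the lowest of them RPL39L at 135. Among those below it were RPL3L at 57.0, RPL10L at 13.2 and RPS10L at 0.565 in the authors' deposited table.

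Some low levels coincide with overlapping gene models. In GENCODE 29, RPL17 (chr18:49488453-49492523, minus strand) shares 91.0% of its exonic bases with the readthrough gene RPL17-C18orf32, RPS10 shares 84.0% with RPS10-NUDT3 and RPL36A shares 77.6% with RPL36A-HNRNPH2. Their levels per kb of transcript were 874, 747 and 1150. How reads in shared exons were counted is not given in the sources used here, so the values of these genes are uncertain. RPL26 (65.3%), RPS15A (41.5%) and RPL18 (26.4%) also share at least 20%, at 7973, 8958 and 9042 per kb, so overlap did not go with a low level in every member. RPS26 shares none and has 7 rows of pseudogenes in the tables, and its level was 1027 in the authors' deposited table. Pseudogene rows did not go with a low level in every member either: RPSA has 28 at a level of 12219 and RPL23A 25 at 13018. No count of calls moved by more than 1.5 times without these 7 overlapping members, a setting chosen after seeing the data.

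**Figure D1:**
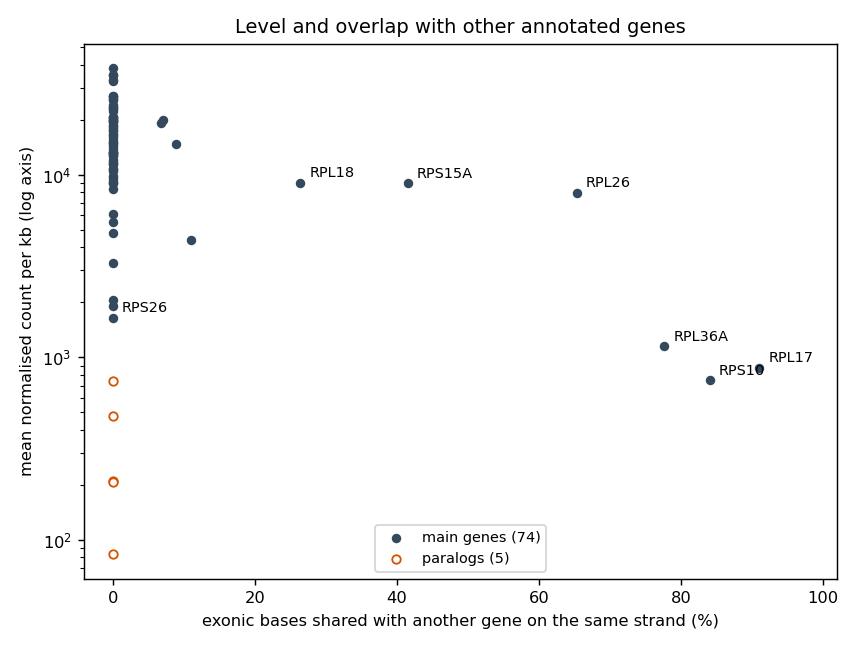
Mean normalised count per kb of the principal transcript (log axis) against the percent of exonic bases shared with another gene on the same strand, for main genes (filled) and paralogs (open) reported by name. RPL17, RPS10 and RPL36A lie at 747 to 1150 per kb with 77.6% to 91.0% shared. RPL26, with 65.3% shared, lies at 7973 per kb, and 1 of the 7 overlapping members is not shown.

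With SGI-110 alone most main genes were lower, and no paralog was called lower. Of the 87 members, 71 were lower than in DMSO and 7 were higher in the authors' deposited table, against 17.1% lower and 30.4% higher of all genes tested. All 71 were among the 77 main genes, of which 2 rose and 4 were not called. None of the 10 paralogs fell and 5 rose. The median over the 84 members measured in both groups was -0.53, against 0.04 over all genes measured in both groups and -0.07 over genes with a level of at least 1000. Of those highly expressed genes, 41.1% were lower.

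RPL22, an RNA-binding 60S protein that is dispensable for translation in the mouse, fell most: its difference was -1.33 ± 0.07 (adjusted p = 1.06e-78), or 2.51-fold lower, in the authors' deposited table. RPS13, which lies at the subunit interface, was at -1.28 ± 0.08 in the authors' deposited table. RPS15A was at -1.17 ± 0.07 in the authors' deposited table. RPL13A, known in interferon-treated myeloid cells as part of a translation silencing complex, was at -1.11 ± 0.07 in the authors' deposited table. RPL21 and RPL30 were both at -1.02 ± 0.07 in the authors' deposited table.

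Both subunits held mostly genes that fell; a difference between them was not tested. Of the 40S members 29 of 35 fell and 1 rose (median -0.55), and of the 60S members 39 of 49 fell and 6 rose (median -0.49) in the authors' deposited table. In the stalk, which recruits elongation factors, RPLP0 was at -0.76 ± 0.07, RPLP1 at -0.35 ± 0.07 and RPLP2 at -0.34 ± 0.08, all lower in the authors' deposited table. RPL5 and RPL11, which carry 5S ribosomal RNA, fell by 0.63 and 0.99 on the log2 scale in the authors' deposited table. RPS6, the substrate of S6 kinases, was at -0.61 ± 0.07 and RPSA, which is also known as a laminin receptor, at -0.69 ± 0.07 in the authors' deposited table. Of 18 genes mutated in Diamond-Blackfan anaemia, a congenital failure of red cell production, 16 fell and 1, RPS26, rose in the authors' deposited table. Their share lower, 88.9%, lay near the 92.2% of all 77 main genes, to which they belong.

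The main genes that did not fall were few. RPL12, at the base of the stalk, rose by 0.29 ± 0.07 (adjusted p = 0.000187) and RPS26 by 0.40 ± 0.08 (adjusted p = 2.08e-06) in the authors' deposited table. Not called were RPL36 (0.00 ± 0.09), RPS10 (-0.03 ± 0.10), RPL36A (-0.09 ± 0.10) and RPL17 (0.14 ± 0.06) in the authors' deposited table. The last 3 are the genes that share most of their exons with a readthrough gene. RPL12 and RPL36 have TOP tracts like the members that fell, as their printed starts show.

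**Figure D2:**
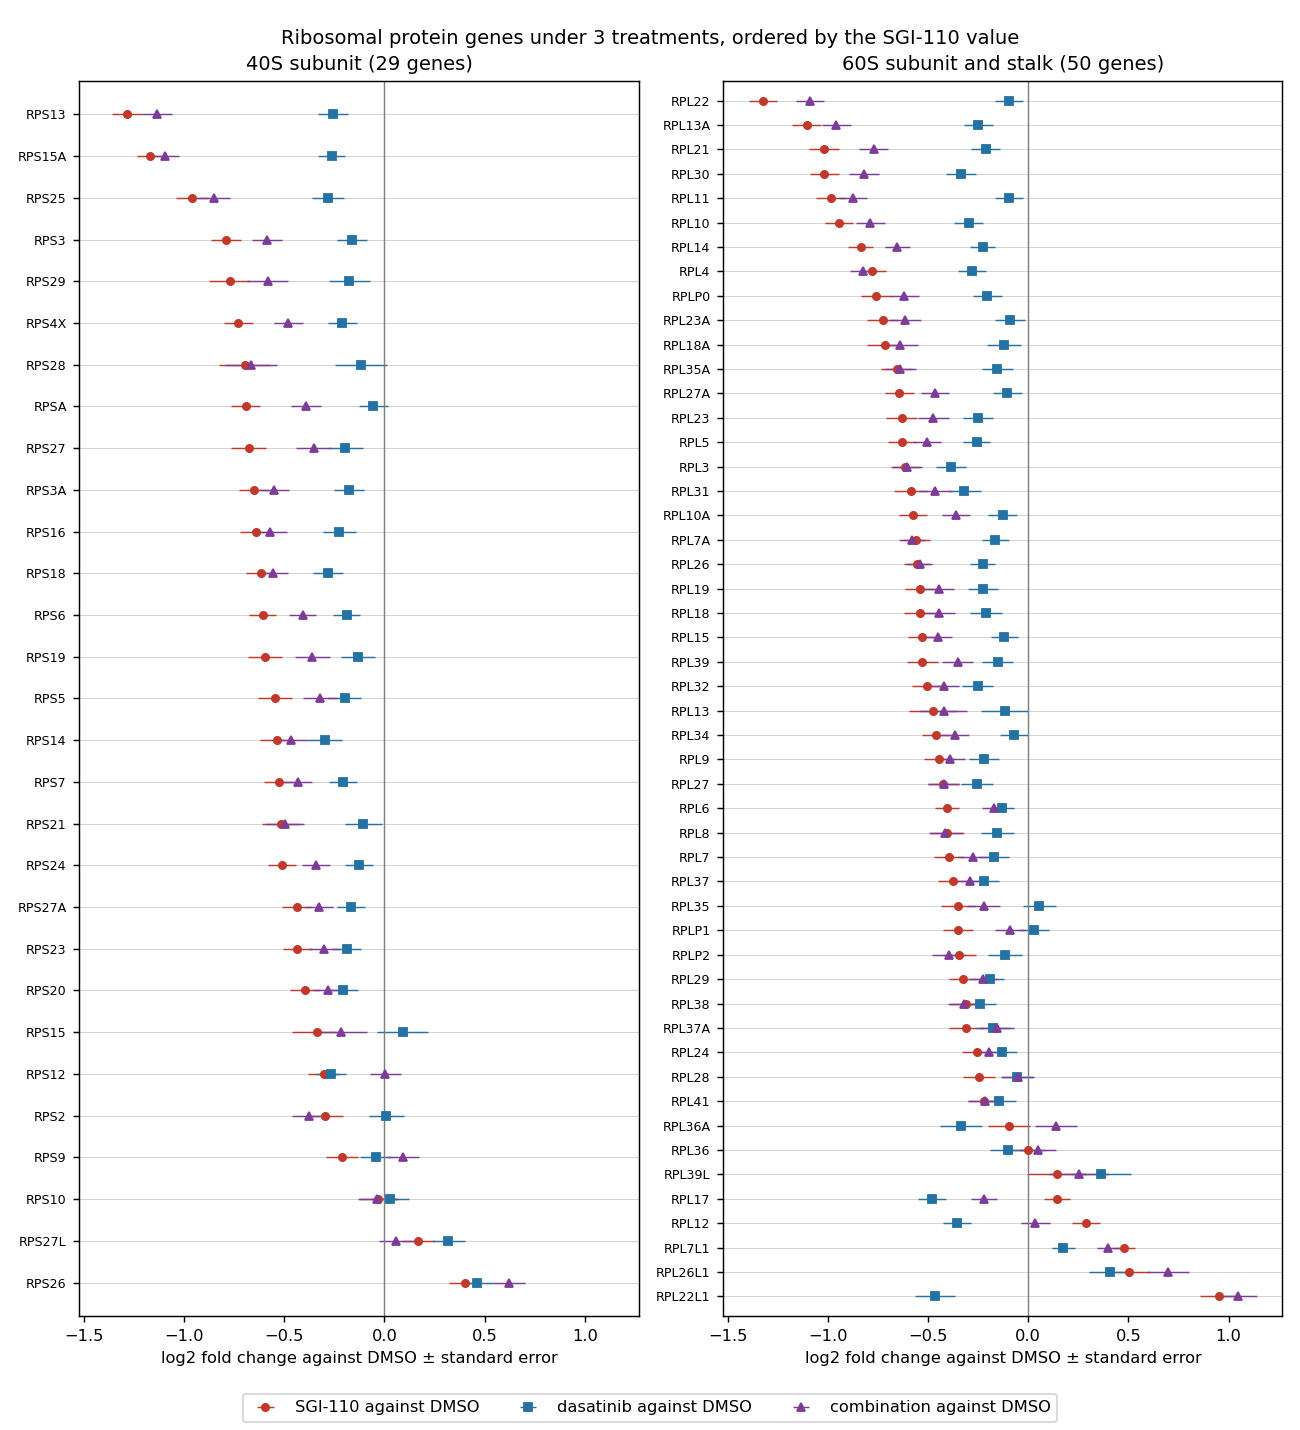
Log2 fold change against DMSO ± standard error of members of the 40S subunit (left) and of the 60S subunit and stalk (right) under SGI-110 (red circles), dasatinib (blue squares) and the combination (purple triangles). RPL3L, RPL10L, RPS10L, the Y-linked genes and members not reported by name are left out. Most red and purple points lie left of 0, from RPL22 at -1.33, and the blue points lie closer to 0.

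Paralogs and their main genes diverged. RPL22L1, which can replace RPL22 in the ribosome and whose mRNA is repressed by RPL22 in the mouse, rose by 0.95 ± 0.09 (adjusted p = 5.32e-23), or 1.93-fold, while RPL22 fell, in the authors' deposited table. RPL3L, the striated muscle form of RPL3, rose by 5.96 ± 0.38 (adjusted p = 1.03e-54) while RPL3 was at -0.61 ± 0.07 in the authors' deposited table. Its level of 57.0 was far below the 28933 of RPL3 in the authors' deposited table. RPL26L1 rose by 0.50 ± 0.11 and RPL26 was at -0.56 ± 0.06 in the authors' deposited table. RPL7L1, a nucleolar relative of RPL7 that acts in large subunit assembly, rose by 0.48 ± 0.06 and RPL7 was at -0.39 ± 0.07 in the authors' deposited table.

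RPL10L, a testis form of RPL10 that replaces it in mouse spermatogenesis, had no measurable level in DMSO or dasatinib and a measurable one with SGI-110 and with the combination. It was called higher with SGI-110 (adjusted p = 5.89e-10) in the authors' deposited table, and no fold is given. RPL39L, another testis form, was at 0.14 ± 0.15 and RPS27L, a p53 target, at 0.17 ± 0.08, neither called, in the authors' deposited table. RPS10L was measurable in no group. RPL36AL, a paralog whose name falls outside the rule, was at 0.10 ± 0.08 in the authors' deposited table, not called.

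**Figure D3:**
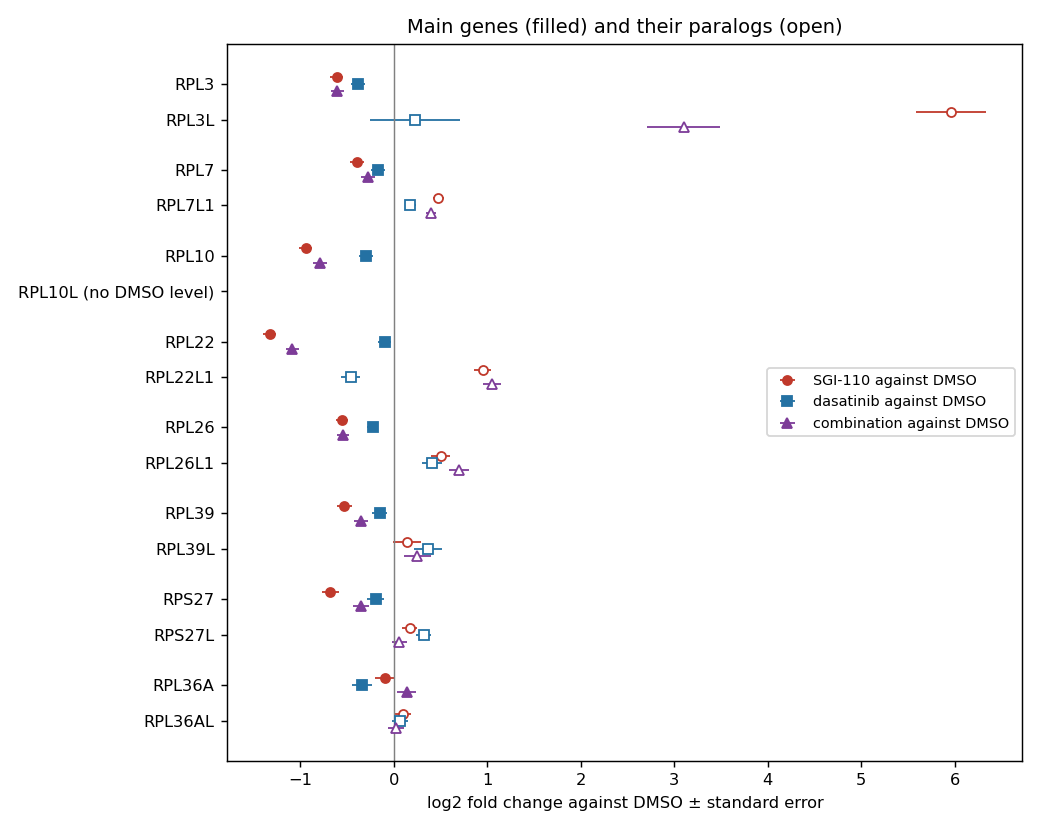
Log2 fold change against DMSO ± standard error of main genes (filled) and paralogs (open) under SGI-110, dasatinib and the combination. RPL3L reaches 5.96 with SGI-110 and 3.10 with the combination, RPL22 and RPL22L1 lie on opposite sides of 0 with SGI-110, and RPL10L has no DMSO level to compare with.

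Dasatinib alone gave smaller changes. Of the 87 members, 40 were lower and 5 higher in the authors' deposited table, against 13.2% lower and 17.8% higher of all genes tested. The median was -0.18, and among genes with a level of at least 1000 it was 0.07, with 18.7% lower and 36.9% higher. No member changed by 0.5 or more on the log2 scale with an adjusted p under 0.05. RPL17 was at -0.48 ± 0.07 (adjusted p = 2.57e-11), RPL22L1 at -0.46 ± 0.10, RPL3 at -0.39 ± 0.07, RPL12 at -0.36 ± 0.07 and RPL30 at -0.33 ± 0.07 in the authors' deposited table. RPL12 and RPL22L1 therefore differed from DMSO in opposite directions under SGI-110 and dasatinib.

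RPS26 rose by 0.46 ± 0.08 (adjusted p = 9.2e-08) with dasatinib in the authors' deposited table, so that this gene was higher under each drug. The other members that rose were RPL26L1 at 0.41 ± 0.11, RPL39L at 0.36 ± 0.15, RPS27L at 0.32 ± 0.08 and RPL7L1 at 0.18 ± 0.06 in the authors' deposited table. All 4 are paralogs. RPL11 (-0.09 ± 0.07), RPSA (-0.06 ± 0.07) and RPL22 (-0.10 ± 0.07), which were clearly lower with SGI-110, were not called with dasatinib in the authors' deposited table.

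With both drugs the values lay near those of SGI-110. Against DMSO, 66 members were lower and 6 higher in the authors' deposited table, against 17.6% lower and 29.8% higher of all genes tested, with a median of -0.40. Among genes at a level of at least 1000, 37.9% were lower and 34.3% higher in the authors' deposited table. RPS13 (-1.13 ± 0.08), RPS15A (-1.09 ± 0.07) and RPL22 (-1.09 ± 0.07) were again the lowest in the authors' deposited table. RPL3L was at 3.10 ± 0.39, RPL22L1 at 1.05 ± 0.09, RPL26L1 at 0.70 ± 0.10, RPS26 at 0.62 ± 0.08 and RPL7L1 at 0.40 ± 0.06, all higher, in the authors' deposited table. RPL10L was the sixth. The 3 comparisons with DMSO share their control libraries. Across them 34 members were lower in all 3, 31 were lower with SGI-110 and the combination only, and 5 with SGI-110 only, while 3 were higher in all 3 and 4 were called in none. Matching counts over all genes are not given, so whether this overlap is particular to the members was not tested.

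With dasatinib added to SGI-110, a smaller share of members as a whole than of highly expressed genes was called, in either direction. In the authors' deposited table of the combination against SGI-110, 20 members were higher and 3 lower, against 14.2% higher and 17% lower of all genes tested, with a median of 0.11. The members' share higher was 23.5% and their share lower 3.53%. By subunit, 36.4% of the 40S members tested and 14.3% of the 60S members were higher. Of the genes at a level of at least 1000, 30.8% were higher and 19.3% lower, with a median of 0.05. RPSA (0.30 ± 0.07, adjusted p = 0.000265), RPS12 (0.31 ± 0.08), RPL6 (0.23 ± 0.06), RPS9 (0.30 ± 0.08) and RPS27 (0.33 ± 0.09) were higher in the authors' deposited table. Centred on genes with a level of at least 1000, 9 rather than 20 members were higher, so the count depends on scaling. RPL3L was lower by far the most, at -2.86 ± 0.19 (adjusted p = 1.08e-46), with RPL17 at -0.36 ± 0.06 and RPL12 at -0.25 ± 0.07, in the authors' deposited table.

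SGI-110 added to dasatinib was computed here from the deposited contrasts, taking them as parts of 1 fit. Against dasatinib alone, 50 members were lower and 10 higher with the combination, against 16.5% lower and 26.6% higher of all genes, with a median of -0.23. Among genes at a level of at least 1000, 43.2% were lower and 24.6% higher, with a median of -0.09. Centred on genes at a level of at least 1000, 32 were lower and 13 higher. RPL22 was at -0.99 ± 0.07, RPS13 at -0.88 ± 0.08 and RPS15A at -0.83 ± 0.07, while RPL22L1 was at 1.51 ± 0.10 and RPL3L at 2.87 ± 0.35. Over the 83 members with a level of at least 100, the SGI-110 difference without dasatinib and the one with it had a Pearson correlation of 0.88. These differences share no library but were normalised together, and genes are not independent replicates.

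The interaction asks whether dasatinib moved a gene differently with SGI-110 present. It was computed here by subtracting the dasatinib difference in DMSO from the dasatinib difference on SGI-110. The same number measures the change of the SGI-110 difference when dasatinib is present. It was higher in 47 members and lower in 3, against 6.09% higher and 8.49% lower of all genes, with a median of 0.30. Among genes at a level of at least 1000, 16.8% were higher and 21.9% lower, with a median of -0.03. By subunit, 23 of 35 members of the 40S and 23 of 49 of the 60S were higher. Of the 47, 31 were lower with dasatinib alone and 18 were higher with dasatinib on SGI-110, while 4 were called in neither. The interaction is computed from both of these differences, so such overlaps follow in part from its definition. At a level of at least 100, 73 of 83 members had a negative dasatinib difference without SGI-110 and 72 of 83 a positive one with it, whatever its size. Among genes at a level of at least 1000, the median dasatinib difference was 0.07 without SGI-110 and 0.05 with it. Matching sign counts over all genes are not given, and members are not independent replicates.

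RPS12 had the largest positive interaction among main genes, 0.57 ± 0.11 (adjusted p = 3.28e-06, Wald test with Benjamini-Hochberg adjustment). It was at -0.27 ± 0.08 with dasatinib alone and 0.31 ± 0.08 with dasatinib on SGI-110 in the authors' deposited table. RPL36A had 0.57 ± 0.15, RPL30 0.53 ± 0.10, RPS27 0.52 ± 0.12, RPL21 and RPS4X 0.46 ± 0.10 and RPL10 0.45 ± 0.10. RPL22L1 had 0.56 ± 0.13, being lower with dasatinib alone and not called on SGI-110. The 3 members with a negative interaction were paralogs: RPL3L (-3.09 ± 0.51), RPS27L (-0.43 ± 0.12) and RPL7L1 (-0.25 ± 0.08). RPL17 and RPL12 were lower with dasatinib in both settings, and their interactions of 0.12 ± 0.09 and 0.10 ± 0.10 were not called.

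**Figure D4:**
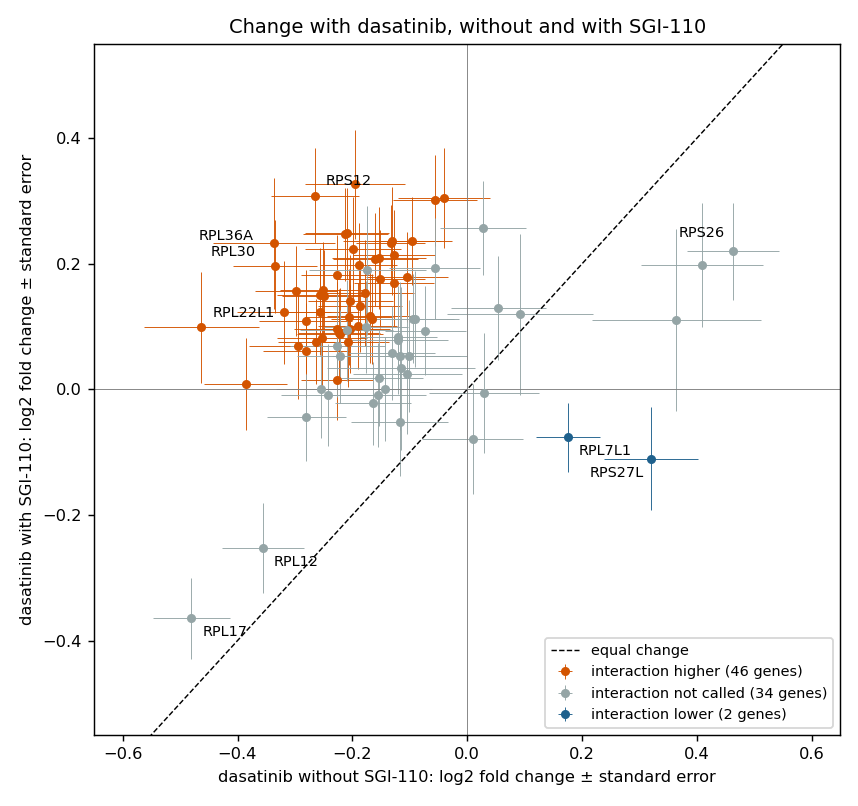
Log2 fold change ± standard error with dasatinib in the absence (horizontal) and presence (vertical) of SGI-110, for 82 members, without RPL3L, RPL10L, RPS10L and the Y-linked genes. Orange points, above the dashed line of equal change, have a positive interaction, which is computed from both axes. They lie mostly left of 0 and above 0. RPL7L1 and RPS27L lie below the line.

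Sequence and gene features were set beside the values. Main members with a TOP tract at a start had a median of -0.54 with SGI-110 (46 genes), and those without one -0.53 (16 genes), from the authors' deposited table. For the interaction the medians were 0.30 and 0.29. Main members with a small nucleolar RNA gene inside them, on the same strand, had a median of -0.63 with SGI-110 (28 genes), and the others -0.53 (49 genes), from the authors' deposited table. Over the 77 main members, log2 level per kb had a Pearson correlation of -0.29 with the SGI-110 difference and a Spearman correlation of -0.11. Log2 transcript length had -0.16 and -0.22. With the longest rather than the shortest principal transcript the Pearson values were -0.25 and -0.12. Over the 46 with a tract, its log2 length had a Pearson correlation of 0.04 with the SGI-110 difference and -0.01 with the interaction.

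Other gene lists set beside the members divided. Of 14 measured genes listed for TOP mRNAs, not all of them translation factors, 14 fell with SGI-110 in the authors' deposited table. Their median was -0.58, and 10 had a positive interaction. Of genes at a level of at least 1000, 41.1% were lower with SGI-110 and 16.8% had a positive interaction. EEF1A1, the elongation factor that delivers aminoacyl-tRNA, was at -0.93 ± 0.08 with SGI-110 and -0.62 ± 0.08 with dasatinib in the authors' deposited table, and its interaction was 0.92 ± 0.11. EIF3F, a subunit of initiation factor 3, was at -1.25 ± 0.08 in the authors' deposited table. FAU, which encodes a ubiquitin-like protein fused to RPS30, was at -0.66 ± 0.08 in the authors' deposited table.

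Assembly factors, which build the subunits without being part of them, were split: 12 of 47 fell and 9 rose with SGI-110 in the authors' deposited table, with a median of -0.01. BRIX1 was at -0.56 ± 0.07 and WDR75 at 0.41 ± 0.05 in the authors' deposited table. Of 15 RNA polymerase I genes 3 fell and 3 rose in the authors' deposited table. Of 7 chaperones of single ribosomal proteins 3 fell, among them RPF2, which helps load the 5S particle, at -0.69 ± 0.09 in the authors' deposited table. Of 10 genes of ribosome quality control 4 fell and 1 rose, with GCN1, which senses stalled ribosomes, at -0.79 ± 0.06 in the authors' deposited table. Of genes at a level of at least 1000, 41.1% were lower and 28.6% higher with SGI-110. The shares lower of chaperones (42.9%) and quality control genes (40%) lay near this. Those of assembly factors (25.5%) and RNA polymerase I genes (20%) lay below it.

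Of 19 regulators of ribosomal protein synthesis 12 (63.2%) fell and 4 rose with SGI-110 in the authors' deposited table. Among genes at a level of at least 1000, 41.1% were lower and 28.6% higher. EIF4EBP1, the translation repressor that mTORC1 inactivates, was at -1.62 ± 0.15, RPTOR, a subunit of mTORC1, at -1.01 ± 0.09 and MYC at -0.60 ± 0.06 in the authors' deposited table. MYC was also lower with dasatinib, at -0.74 ± 0.06 in the authors' deposited table, and its interaction of 0.09 ± 0.09 was not called. Mitochondrial ribosomal protein genes fell with SGI-110 in 54 of 78 (69.2%) and rose in 4, with a median of -0.41, in the authors' deposited table. With dasatinib 24 (30.8%) rose and 3 fell in the authors' deposited table, a share of rises near the 36.9% of genes at a level of at least 1000. Of the 78, 5 (6.41%) had a positive and 5 (6.41%) a negative interaction, against 6.09% and 8.49% of all genes. Of genes at a level of at least 1000, 16.8% and 21.9% did.

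**Figure D5:**
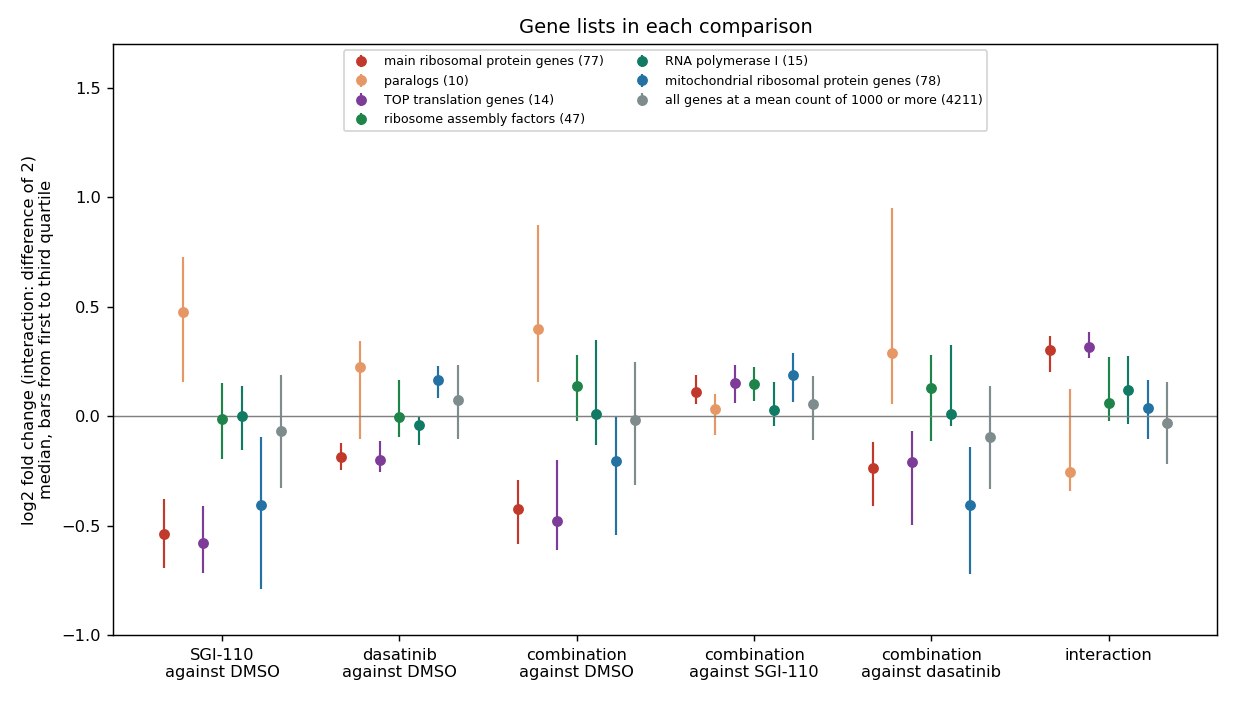
Median log2 fold change of each gene list in 6 comparisons, with bars from the first to the third quartile over members measured in all groups compared. The main ribosomal protein genes and the genes listed for TOP mRNAs, labelled TOP translation genes, lie near each other throughout. They lie at -0.54 and -0.58 with SGI-110 and at 0.30 and 0.32 for the interaction.

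Pseudogene rows named after a member numbered 342, of which 12 had a level of at least 100. Of these 12, 8 fell and none rose with SGI-110 in the authors' deposited table, with a median of -0.54. Of all genes at a level of at least 100, 34.9% were lower and 32.6% higher. Of the 318 pseudogene rows tested at any level, 22 (6.92%) fell and 15 (4.72%) rose, against 17.1% and 30.4% of all genes tested. RPL9P9, the most abundant at 3968, was at -0.42 ± 0.08 in the authors' deposited table. Whether reads of the main genes are counted in these rows was not tested.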

How the data were processed

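RNA of 24 cultures (8 groups of 3) was made into stranded poly(A) libraries and read as pairs of 75 bases, per the labels' protocols. Tools named in the submitters' processing notes, in no stated role, are DESeq2 1.16.1, featureCounts 1.5.1, HISAT2 2.1.0, DESeq and Trim Galore 0.4.2; the build is GRCh38. The authors deposited 4 comparison tables and no library-level values were used. The depth of each library is therefore unknown, and the deposited standard errors give the precision. The signal of a gene is the deposited baseMean, read as a mean normalised count. The deposited lfcSE is a standard error on the log2 scale. The deposited stat is a score, the Wald statistic. The deposited p-value and adjusted p-value come from that test, as the authors computed them with DESeq2.

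The log2 fold change was computed as the statistic times its standard error. The largest deposited standard error, 6.01, is that of 3 libraries a group (6.01) and not of 6 (4.25). A group with a standard error of at least 1.18 log2 was called unmeasurable and gives no fold. Group variances were solved from the 3 contrasts that close to within 0.00152 log2. The interaction and the combination against dasatinib were then tested by Wald tests, adjusted by Benjamini-Hochberg over 29639 genes, assuming that the dasatinib table is from the same fit. The edgeR test planned for count tables was not run, since no counts were used. The calculation was tested on simulated data; runs with few draws first exceeded the limit on the share of false calls, and the number of draws was then raised, the share averaged over them and the limit lowered.

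Members and lists were chosen with earlier results of these data known. Named genes are the 6 with the smallest adjusted p in each direction, the 5 largest changes at a level of at least 100, those against the majority, paralog pairs, the 5 highest levels, and RPL5, RPL11, RPS6, RPSA and the stalk. Other named genes were chosen after their values were seen. Annotation is GENCODE 29, with the shortest principal transcript. The longest was used first and was replaced, after its results had been seen, because several lengths far exceeded those of other ribosomal protein transcripts. This changed 1 of 7 overlapping members, RPS15A in place of RPL36. The mitochondrial list first held 91 names and now holds 78, without pseudogenes, after its values had been seen. A few genes are counted but not reported by name here. Replicates are separate cultures per the labels. Tools were Python 3.11.15, numpy 2.4.6, pandas 2.3.3, scipy 1.17.1 and matplotlib 3.10.9.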

Additional observations from a re-analysis of the deposited data

Results flagged for a closer look

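The difference of dasatinib with and without SGI-110 was tested for each gene, by a Wald test computed here. With Benjamini-Hochberg adjustment over all genes, it was higher in 47 members and lower in 3. Of all genes, 6.09% were higher and 8.49% lower, and of those at a level of at least 1000, 16.8% and 21.9%. The members were not tested as a set. Among the members that differed in this way, those picked by the rule for named genes in this comparison included RPS12 (0.57), RPL36A (0.57), RPL22L1 (0.56), RPL30 (0.53), RPS27 (0.52), RPS4X (0.46), RPL10 (0.45) and RPL14 (0.41), with more positive values on SGI-110, and RPL3L (-3.09), RPS27L (-0.43) and RPL7L1 (-0.25), with more negative ones. RPL36A shares 77.6% of its exonic bases with a readthrough gene. RPL3L has a level of 57.0, with group standard errors of 0.36 log2 in DMSO and 0.31 in dasatinib. All of these rest on the assumption that the dasatinib table comes from the same fit as the others.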

How the results depend on the processing

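No median of the members, and no value of a member picked for a comparison by its adjusted p or size, changed sign under any alternative run. For single members this was largely fixed in advance. Only centring alters their values, by at most 0.09 log2, and they were picked for a small adjusted p or a large change. RPL36 (0.00) and RPS10 (-0.03) with SGI-110, not called and not among these, lie closer to 0 than the shift of -0.07 of genes at a level of at least 1000, so that centring turns their sign. With a change of at least 0.5 log2 required, SGI-110 left 46 members lower and 4 higher, dasatinib 0 and 0, the combination 27 lower, the combination against SGI-110 1 lower and 0 higher, the combination against dasatinib 12 lower and 3 higher, and the interaction 1 lower and 5 higher. At an adjusted p under 0.01, dasatinib left 24 lower, the combination against SGI-110 9 higher and the interaction 26 higher. Without the paralogs, the members higher were 2 with SGI-110, 1 with dasatinib, 1 with the combination and 4 for the combination against dasatinib, and 0 were lower for the interaction. Centred on genes at a level of at least 100, or of at least 1000, dasatinib left 3 higher. Centred on the latter, the combination against SGI-110 left 9 higher, and the combination against dasatinib 32 lower with a median of -0.14. With variances summed, the latter left 33 lower, because the shared DMSO group is then counted on both sides. The causes of the other shifts were not tested, apart from the stricter thresholds and fewer members themselves. Of single genes under these settings, 264 values kept their call and 9 lost it, those of RPL39L and RPL7L1 with dasatinib, RPL26L1 for the combination against dasatinib and RPL7L1 for the interaction. Overlapping genes left out, by the shortest or by the longest principal transcript (both chosen after seeing the data), moved no count by more than 1.5 times. With pseudogenes included, 54 of 91 mitochondrial names fell with SGI-110 and 5 rose. No paired analysis was possible because the tables hold no values per library, and leaving out each replicate was not run for the same reason. RPS10L was measurable in no group, and RPL10L not in DMSO or dasatinib.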
